A study of Mus musculus with 27 samples.

Results

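The genes of the proteasome were described in mouse thyroid tissue that had been cut out of sections by laser capture microdissection. Members were the protein-coding genes whose symbol starts with Psma, Psmb, Psmc, Psmd, Psme or Psmg and a digit, without Psmb8, Psmb9 and Psmb10. The rule found 46 of the 54532 gene rows of the count table. They comprised 8 alpha and 8 beta genes of the 20S core, 6 ATPase and 11 non-ATPase genes of the 19S regulatory particle, 5 activator genes and 7 assembly chaperones. The remaining gene, Psmc3ip, encodes a factor of meiotic recombination and no subunit, and met the rule through the first letters of its symbol.

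There were 3 groups of 9 libraries, each from 6 female and 3 male mice. PL libraries held proliferative thyroid lesions of radiation-exposed mice. NT libraries held normal thyroid tissue next to lesions in the same 9 exposed mice, so PL and NT were paired by mouse. NCT libraries held normal thyroid of 9 mice that were not exposed. The series asked how lesion tissue differs from normal thyroid; dose, strain and age of the mice are not stated in the labels. RNA was read from the 3′ end of polyadenylated transcripts, a design that yields about 1 fragment per transcript irrespective of its length. Counts were scaled to a common library total (CPM) and were not divided by gene length. Libraries held 2923851 to 14148601 counts. None of the 8 markers of thyroid follicular cells was at 0 throughout a group, and their summed level was 11937 to 35833 CPM in PL, 13151 to 41239 CPM in NT and 27458 to 62064 CPM in NCT. Some libraries carried transcripts of other tissues, with the parathyroid hormone gene Pth or the gastric lipase gene Lipf above 2000 CPM in 1 PL library (replicate 2), in NT replicates 7 and 9, and in 3 NCT libraries (replicates 5, 8 and 9). Summed airway epithelium markers reached 449 CPM in PL, 6240 CPM in NT and 5261 CPM in NCT. Summed skeletal muscle markers reached 467, 1457 and 453 CPM in the same order.

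The proteasome is the protease that degrades proteins tagged with ubiquitin. Its 20S core is a barrel of stacked alpha and beta rings with the proteolytic sites inside. The 19S particle binds tagged proteins, removes the ubiquitin and, through a ring of ATPases, unfolds and threads the protein into the barrel. Activators such as PA28 and PA200 can cap the core in place of the 19S particle. Interferons raise PA28 alpha and beta together with exchangeable catalytic subunits that form the immunoproteasome, and the core subunits as a group are known to be raised by the transcription factor Nrf1 when proteasome activity is low.

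The 43 members that could be tested had reads in all 27 libraries. On the CPM scale the mean level over all libraries was highest for Psma2, an alpha ring subunit, at 241 CPM. Among the beta ring genes it was highest for Psmb1, at 223 CPM. In the 19S particle it was highest for Psmd1, the large scaffold of the base, at 184 CPM, and among the ATPases of that particle for Psmc1, at 155 CPM. The chaperones, which assist assembly and leave the finished particle, lay between Psmd9 at 10.8 CPM and Psmg4 at 23.6 CPM. The levels of tested members spanned 22.3-fold, and 18 of the 46 members averaged 100 CPM or more.

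**Figure D1:**
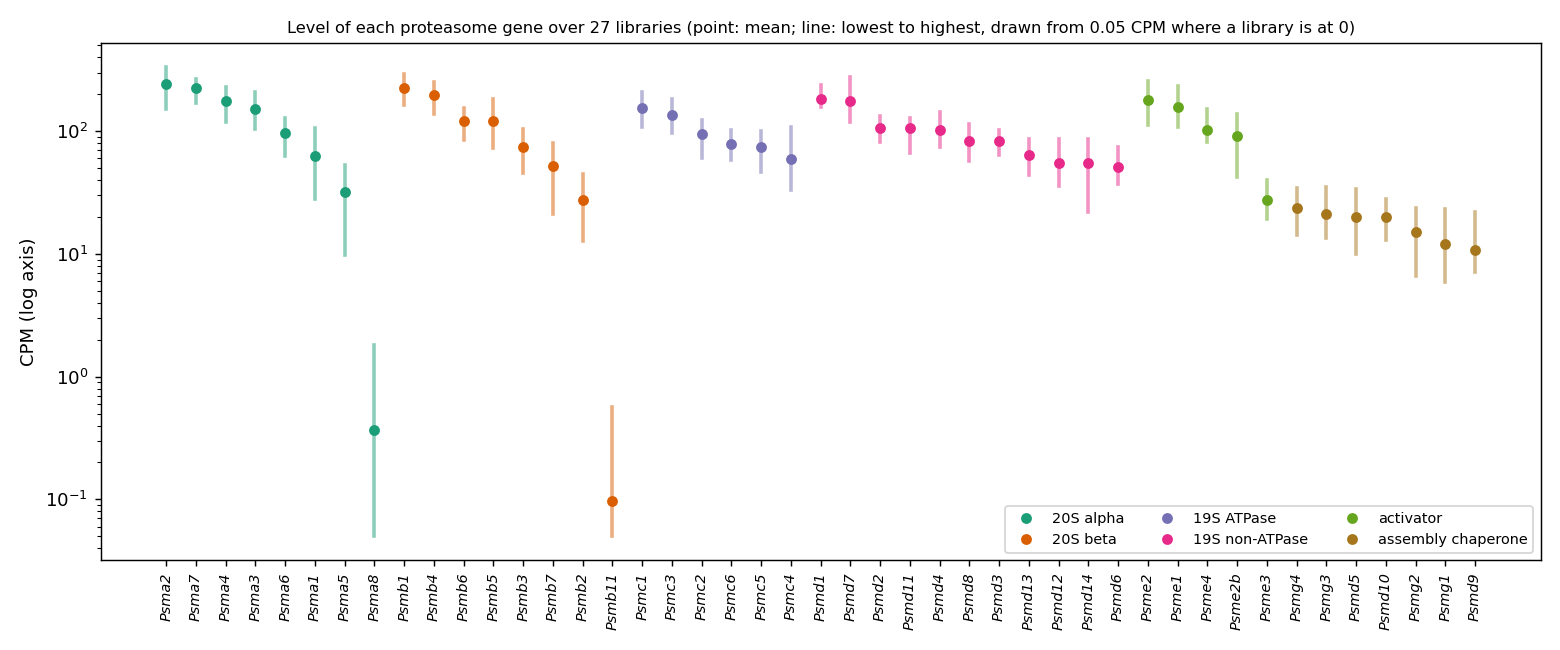
Mean level of 45 proteasome genes over 27 libraries in CPM on a log axis, grouped by class, with a line from the lowest to the highest library. Psma2 is highest at 241 CPM, the 7 assembly chaperones lie near 10 to 24 CPM, and Psma8 and Psmb11 lie far under all others.

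Tissue-restricted members were near 0. Psma8, the alpha subunit of the testis proteasome, had 66 reads in all libraries together and reached at most 1.80 CPM in PL, 0.902 CPM in NT and 1.47 CPM in NCT. Psmb11, the catalytic subunit of the thymic cortex, had 20 reads in all and reached at most 0.571, 0.331 and 0.293 CPM in PL, NT and NCT libraries. Psmc3ip reached at most 4.65 CPM in PL, 4.01 CPM in NT and 2.09 CPM in NCT. These 3 genes did not pass the filter on low counts in any comparison, so 43 members were tested in each.

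Together the 46 members took 0.394% to 0.470% of counts in PL libraries, 0.372% to 0.478% in NT and 0.300% to 0.439% in NCT, so the groups overlapped. The lowest 2 shares, in NCT replicates 9 and 6, came from the libraries with the highest shares of mitochondrially encoded transcripts, up to 20.3% of counts. Replicate spread was small for most members: the SD of log2 CPM within groups had a median of 0.26 and was lowest for Psmd1 at 0.13. It was above 0.4 for 8 tested members, namely Psma1, Psma5, Psmb2, Psmb7, Psmd14, Psmd5, Psmg1 and Psmg2, a group chosen on these values. PL replicate 5 was the lowest PL library for 7 of these 8, and NCT replicate 8 the lowest NCT library for 7 of 8. Psma5, an alpha ring subunit, varied most, with 10.2 CPM lowest, 41.0 CPM median and 53.4 CPM highest in PL, against 9.81, 24.5 and 45.4 CPM in NT and 20.2, 32.9 and 46.2 CPM in NCT. It was low in PL replicate 5 and in NT replicates 2, 4 and 6, and the 3 groups overlapped. PL replicate 5 held 7270197 counts and 20744 genes with a count, and NCT replicate 8 held 6649795 and 20557, all above the medians of their groups.

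**Figure D2:**
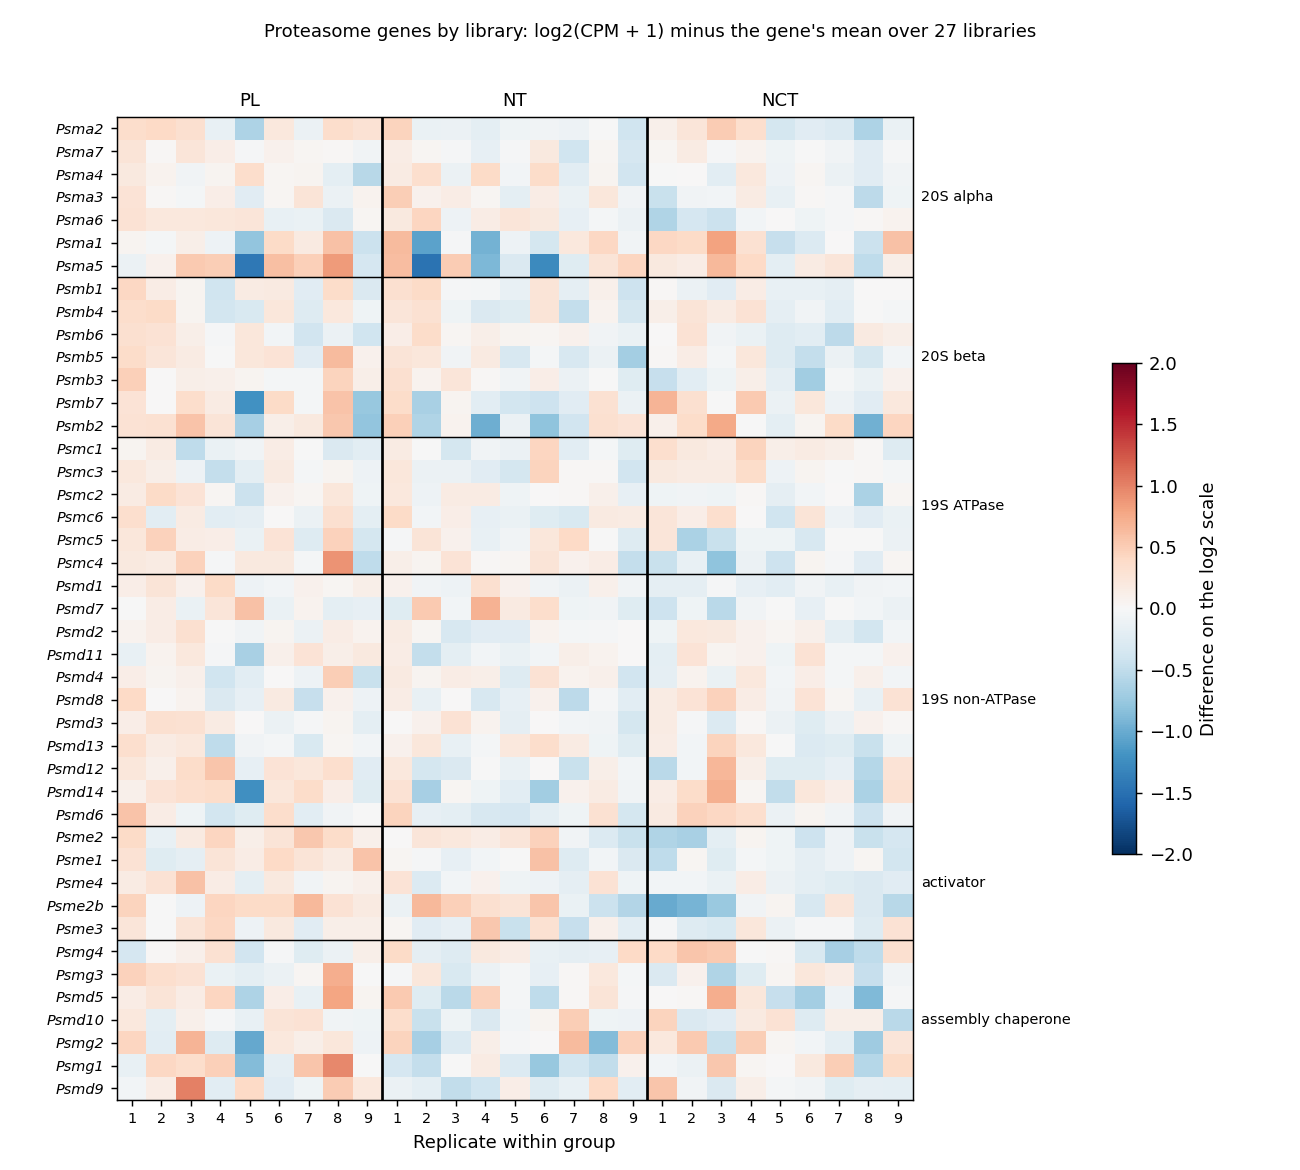
Each tested gene (rows, by class) in each library (columns, PL, NT and NCT replicates 1 to 9), as log2(CPM + 1) minus the mean of the gene over 27 libraries. Most cells are pale; Psma5, Psma1, Psmb2, Psmb7 and Psmd14 show dark blue cells in single libraries such as PL replicate 5 and NT replicate 2, and Psme2 and Psme2b are bluer in NCT than in PL.

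In lesions against normal tissue of the same mice, no member passed the test. Of the 43 tested members, 0 were higher and 0 lower in PL than in NT by edgeR's quasi-likelihood test with Benjamini-Hochberg adjustment over 14461 genes. Across all genes 1.76% were higher and 1.31% lower. DESeq2's Wald test called 0 members, against 8.89% of genes, and at an unadjusted p under 0.05 edgeR had 3 members (6.98%), against 17.6% of genes. Point estimates were small and mostly above 0. The log2 fold change was positive for 33 members (76.7%, against 50.2% of all tested genes), with a median of 0.10 beside 0.00 over all genes and a range from -0.09 to 0.48. The 95% interval lay within 1.5-fold in both directions for 39 members and within 2-fold for 42. No test was made of whether that shared sign is particular to these genes, and in single mice the number of members higher in PL than in NT ran from 19 of 43 in the mouse of replicate 5 to 35 of 43 in that of replicate 3. Cell type markers differed between PL and NT. By edgeR, 5 of 8 C cell markers (median log2 fold change -3.27) and 4 of 6 airway epithelium markers (median -3.03) were lower in PL. Of 8 follicular cell markers, 1 was higher and 0 lower (median 0.44). The part of cell content in the member values was not tested.

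The 3 members at an unadjusted p under 0.05 came from different parts of the particle. Psmb5 encodes the core's chymotrypsin-like catalytic subunit, the main target of proteasome inhibitor drugs. It had 101 CPM lowest, 139 CPM median and 183 CPM highest in PL, against 72.9, 112 and 140 CPM in NT and 84.4, 113 and 138 CPM in NCT. PL replicate 8 was the highest and NT replicate 9 the lowest, and the groups overlapped. The log2 fold change in PL against NT was 0.29 (SE 0.12, edgeR adjusted p = 0.186), with PL higher in 8 of 9 mice. Psmd12, a subunit of the 19S lid, had a log2 fold change of 0.29 in PL against NT (edgeR adjusted p = 0.192, higher in 7 of 9 mice). Psmg1, a chaperone of core assembly, had one of 0.48 (edgeR adjusted p = 0.281, higher in 7 of 9 mice) at levels of 5.87 to 23.3 CPM in PL and 6.41 to 13.1 CPM in NT. The members higher in PL in every mouse were not among these 3. Psmd8, a lid subunit, was higher in 9 of 9 mice with a log2 fold change of 0.10 (edgeR adjusted p = 0.602), and Psmd9, a chaperone of the 19S base, in 9 of 9 with 0.35 (edgeR adjusted p = 0.392). With each mouse left out, the Psmd9 value was 0.20 to 0.39. Psmd9 was 22.1 CPM in PL and 7.13 CPM in NT in the mouse of replicate 3, but 8.80 and 8.64 CPM in that of replicate 6.

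By class, the median log2 fold change of PL against NT was 0.13 for the alpha, 0.09 for the beta, 0.02 for the ATPase and 0.09 for the non-ATPase genes. The medians were 0.18 for the activators, all 5 of which were positive, and 0.15 for the chaperones. Among the core's other catalytic subunits, Psmb6 had -0.08 (edgeR adjusted p = 0.734) and Psmb7 0.11 (edgeR adjusted p = 0.790). For the ubiquitin handlers of the 19S particle, the receptor Psmd4 had -0.08 (edgeR adjusted p = 0.723) and the deubiquitinase Psmd14 0.16 (edgeR adjusted p = 0.699). No difference between the sexes in the PL against NT change passed the test: 0 of 14461 genes and 0 of 43 members did. At an unadjusted p under 0.05 there was 1 member, against 2.77% of genes, Psma2 with a male minus female difference of 0.51 on the log2 scale (edgeR unadjusted p = 0.0409).

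**Figure D3:**
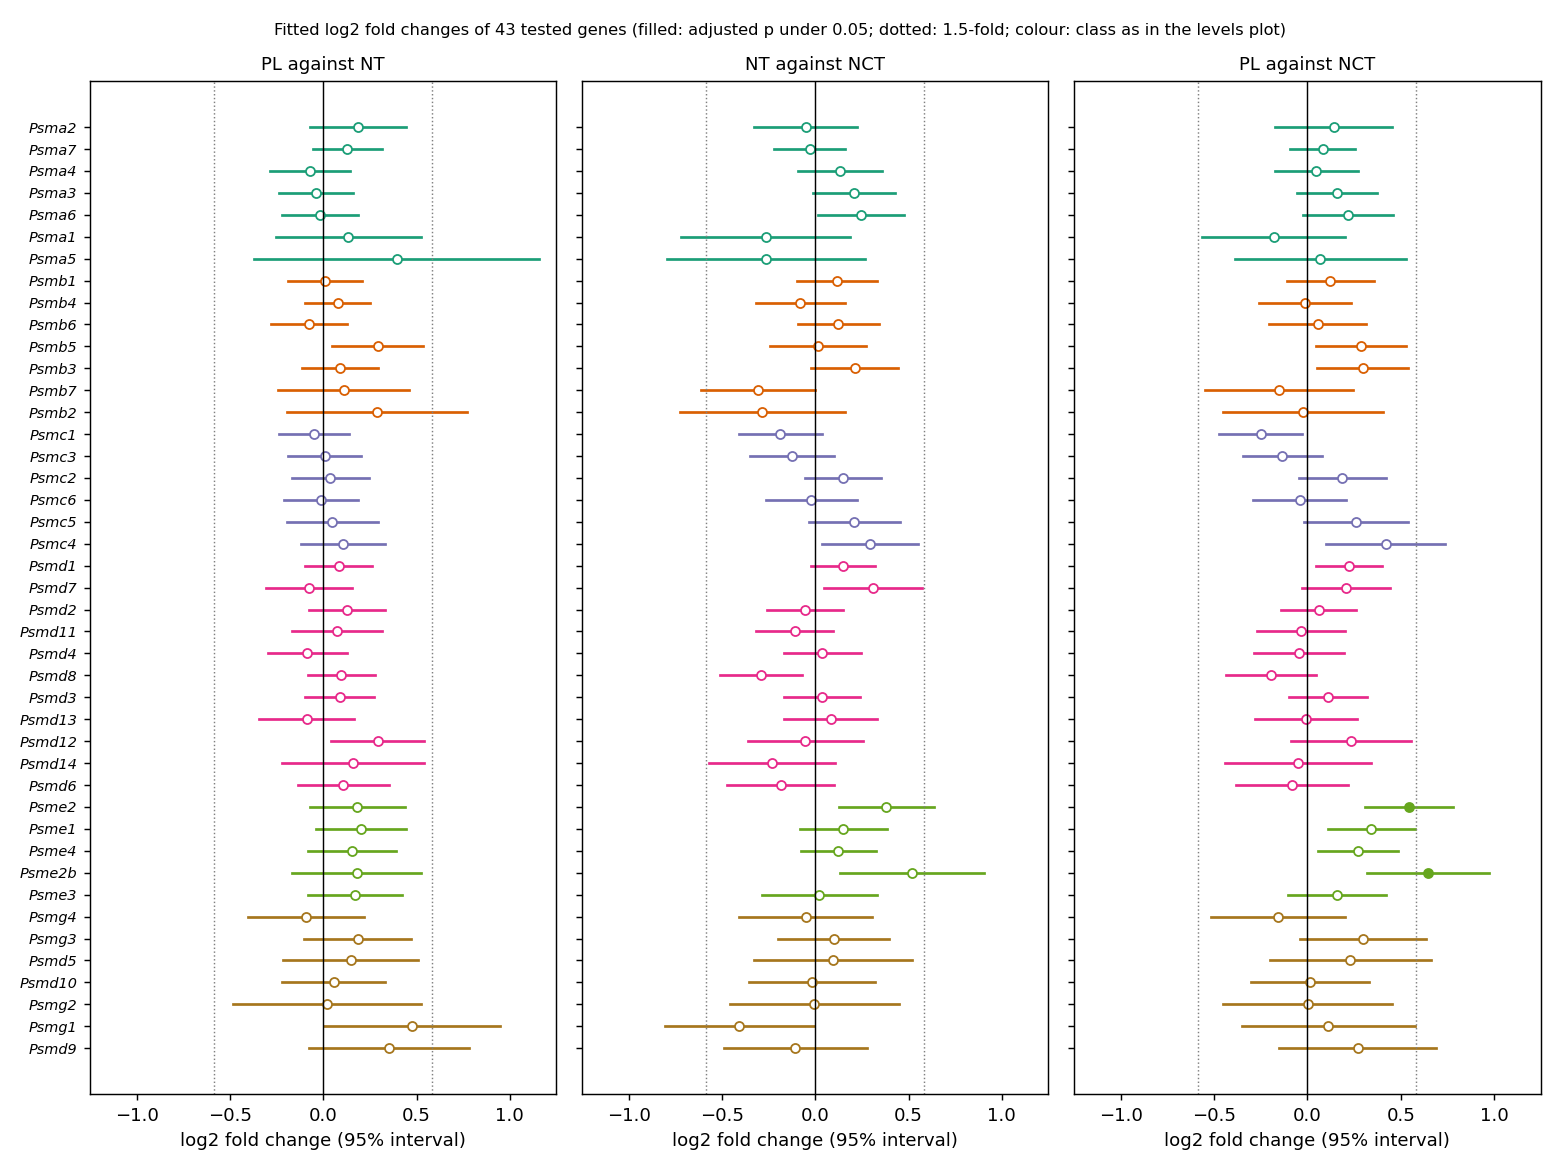
Log2 fold changes of the 43 tested genes with 95% intervals for PL against NT, NT against NCT and PL against NCT, coloured by class, with filled points for an adjusted p under 0.05 and dotted lines at 1.5-fold. Filled are Psme2 (0.54) and Psme2b (0.65) in PL against NCT, and no other point.

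Normal tissue of exposed mice against thyroid of non-exposed mice also gave no call. By edgeR, 0 of 43 members were higher and 0 lower in NT than in NCT, against 0.00692% and 0.0208% of 14447 genes, and DESeq2 called 0 members, against 0.928% of genes. At an unadjusted p under 0.05 edgeR had 8 members (18.6%), against 11.6% of genes, 5 with a positive and 3 with a negative log2 fold change. The median over members was 0.01, equal to the 0.01 over all genes, with a range from -0.41 to 0.52, and the 95% interval lay within 2-fold for 43 of 43 members. The 3 negative ones were Psmd8 at -0.29 (edgeR adjusted p = 0.295), Psmb7 at -0.31 (edgeR adjusted p = 0.430) and Psmg1 at -0.41 (edgeR adjusted p = 0.422). Psmd8 had 57.0 CPM lowest, 74.2 CPM median and 91.4 CPM highest in NT, against 74.8, 93.2 and 114 CPM in NCT. All 9 NT libraries were below the NCT median, though the ranges overlapped. The 5 positive ones were Psme2, Psme2b, the ATPase Psmc4 at 0.29 (edgeR adjusted p = 0.371), the lid subunit Psmd7 at 0.31 (edgeR adjusted p = 0.349) and the alpha subunit Psma6 at 0.24 (edgeR adjusted p = 0.410). For Psma6 the value was -0.02 within the mouse number series that holds 4 libraries of each group (edgeR adjusted p = 0.998). A number series is the set of mice whose numbers in the labels share their leading digits. The series held 4, 1 and 4 NCT libraries, but 1, 4 and 4 libraries of NT and of PL. Comparisons against NCT are therefore partly confounded with the series.

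Lesions against thyroid of non-exposed mice gave 2 members that were higher in PL and 0 that were lower by edgeR. That is 4.65% of the 43 tested, near the 5.45% of 14234 genes that were higher; 4.62% of genes were lower. DESeq2 called 3 members, adding Psme1, against 13.1% of genes, and at an unadjusted p under 0.05 edgeR had 9 members (20.9%), against 23.6% of genes. The median log2 fold change of members was 0.11 beside 0.00 over all genes, with a range from -0.25 to 0.65, and the 95% interval lay within 1.5-fold for 37 members and within 2-fold for 43. This comparison shares the PL libraries with the first and the NCT libraries with the second, so the 3 sets of values are not independent.

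The 2 members that rose were Psme2 and Psme2b. Psme2 encodes PA28 beta, which forms a ring with PA28 alpha that opens the core to peptides, and Psme2b is an intronless copy of it on another chromosome. Psme2 (ENSMUSG00000079197) lies on chromosome 14 at 55587441 to 55591113 on the minus strand and Psme2b (ENSMUSG00000078153) on chromosome 11 at 48945354 to 48946190 on the minus strand, in build GRCm38. Over 794 aligned bases their transcripts had 99.4% identity with 5 differences, so that 3′ end reads could have been split or dropped between them, and the value of each alone is uncertain.

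Psme2 had 158 CPM lowest, 210 CPM median and 256 CPM highest in PL, 129, 195 and 242 CPM in NT, and 111, 138 and 182 CPM in NCT. All PL libraries except replicate 2 were above the highest NCT library, replicate 4, and NT lay across both. The log2 fold change in PL against NCT was 0.54 (SE 0.11, 1.46-fold with a 95% interval of 1.24 to 1.72, edgeR adjusted p = 0.00357), with 9 of 9 PL libraries above the NCT median. It was 0.38 in NT against NCT (SE 0.12, edgeR adjusted p = 0.241, 8 of 9 above) and 0.18 in PL against NT (SE 0.12, edgeR adjusted p = 0.468, higher in 5 of 9 mice), neither past the threshold.

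Psme2b had 80.8 CPM lowest, 114 CPM median and 137 CPM highest in PL, 57.7, 104 and 137 CPM in NT, and 42.7, 69.4 and 103 CPM in NCT. Its log2 fold change in PL against NCT was 0.65 (SE 0.16, edgeR adjusted p = 0.0105, 9 of 9 PL libraries above the NCT median). In 6 PL libraries the level was above every NCT library, and the call held in 26 of 29 alternatives. It was lost in females only (edgeR adjusted p = 0.0753), with the level of adipocyte genes as a covariate (edgeR adjusted p = 0.163) and within the mouse number series that holds 4 PL and 4 NCT libraries (edgeR adjusted p = 0.166). Of the reads given to Psme2 and Psme2b together, Psme2b held 28.8% to 37.3% in PL, 30.9% to 39.6% in NT and 25.2% to 38.5% in NCT, which overlapped. With both summed into 1 gene, an alternative chosen after seeing the data, the log2 fold change in PL against NCT was 0.58 (edgeR adjusted p = 0.00357). Psme2 passed in 28 of 30 alternatives run, and without the libraries rich in Pth or Lipf its log2 fold change was 0.60 (edgeR adjusted p = 0.0129). It did not pass the test with the level of adipocyte genes as a covariate (0.53, edgeR adjusted p = 0.123) or within that mouse number series (0.63, edgeR adjusted p = 0.0717). With the number series as a covariate both passed, Psme2 at 0.55 (edgeR adjusted p = 0.0100) and Psme2b at 0.59 (edgeR adjusted p = 0.0312).

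The partner PA28 alpha did not pass the test. Psme1 had 130 CPM lowest, 184 CPM median and 231 CPM highest in PL, 126, 149 and 232 CPM in NT, and 108, 144 and 160 CPM in NCT. In 7 PL libraries it was above every NCT library. The log2 fold change in PL against NCT was 0.34 (SE 0.11, edgeR adjusted p = 0.0558). DESeq2 gave an adjusted p of 0.0403, and leaving out PL replicate 2 in edgeR one of 0.0239; over 30 alternatives it ran from 0.0239 to 0.573 and passed in 4. Of the activators that are not induced by interferon, Psme4, which encodes PA200, had 0.27 in PL against NCT (SE 0.10, edgeR adjusted p = 0.104), and Psme3, which encodes the nuclear PA28 gamma, had 0.16 (SE 0.13, edgeR adjusted p = 0.495). Summed over the 5 activator genes, levels were 525 to 696 CPM in PL (median 657), 431 to 731 CPM in NT (median 581) and 389 to 560 CPM in NCT (median 451).

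**Figure D4:**
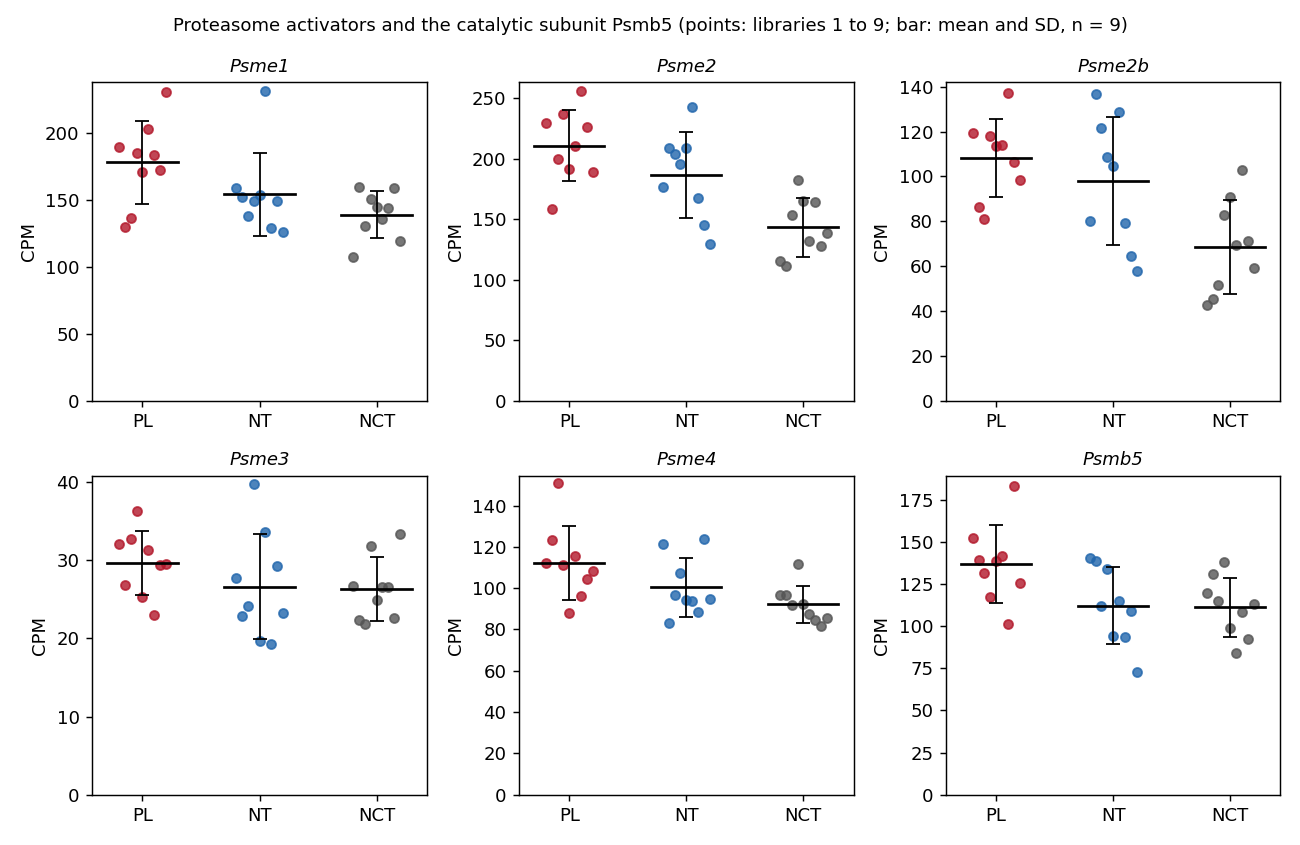
CPM of the 5 activator genes and Psmb5 in each library (points) with mean and SD (bars, n = 9) in PL, NT and NCT. Psme2 and Psme2b lie higher in PL than in NCT with NT between and across both; the groups overlap for every gene.

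Macrophages and lymphocytes also express PA28, and their markers were in these libraries. The 9 macrophage markers summed to 193 to 928 CPM in PL (median 612), 341 to 1508 CPM in NT (median 781) and 368 to 693 CPM in NCT (median 492). The 7 T and NK cell markers summed to 1.81 to 39.7 CPM in PL, 9.04 to 44.7 CPM in NT and 4.52 to 48.8 CPM in NCT. No marker of either list was at 0 throughout a group, and 0 of 9 macrophage markers and 0 of 6 tested T and NK cell markers were higher in PL than in NCT by edgeR. NT replicate 6, the highest NT library for Psme1 and Psme2, was also the highest for both lists. The 10 adipocyte markers summed to 125 to 1786 CPM in PL, with a median of 478 CPM, and to 419 to 1390 CPM in NT, with a median of 659 CPM, against 782 to 6394 CPM in NCT, with a median of 1444 CPM. By edgeR, 0 of 9 tested adipocyte markers were higher and 0 lower in PL than in NCT, with a median log2 fold change of -1.89. Some other marker lists did hold edgeR calls between PL and NCT. Of 8 C cell markers 5 were lower and 1 higher in PL, with a median log2 fold change of -4.76. All 4 tested airway epithelium markers were lower (median -3.75), as were 3 of 6 fibroblast markers (median -0.71). Of 8 follicular cell markers 2 were higher and 1 lower (median 0.35). The part of these cell types in the PA28 values was not tested, other than by the adipocyte covariate. In such bulk samples, fewer cells of a type and less RNA per cell cannot be told apart.

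The promoters of both PA28 genes are shown because their products form a shared ring, with that of Psmb5 beside them as a core subunit. They are 300-base windows of RefSeq, 250 bases before to 50 after a start site, in build GRCm38.p6, at chr14:55578244-55578543 on the plus strand for Psme1, chr14:55591052-55591351 on the minus strand for Psme2 and chr14:54617946-54618245 on the minus strand for Psmb5, written 5′ to 3′ along the gene. Capitals mark matches to 2 motifs, the interferon-stimulated response element core (GAAA, any 2 bases, GAAA) and the antioxidant response element core TGACNNNGC, searched on both strands.
Psme1: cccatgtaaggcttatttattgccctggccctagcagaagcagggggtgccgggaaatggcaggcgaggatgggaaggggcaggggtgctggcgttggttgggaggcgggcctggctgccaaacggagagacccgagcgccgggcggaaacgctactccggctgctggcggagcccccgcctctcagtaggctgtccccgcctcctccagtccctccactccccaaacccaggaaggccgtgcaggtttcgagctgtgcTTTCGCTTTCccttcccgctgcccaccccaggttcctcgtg
Psme2: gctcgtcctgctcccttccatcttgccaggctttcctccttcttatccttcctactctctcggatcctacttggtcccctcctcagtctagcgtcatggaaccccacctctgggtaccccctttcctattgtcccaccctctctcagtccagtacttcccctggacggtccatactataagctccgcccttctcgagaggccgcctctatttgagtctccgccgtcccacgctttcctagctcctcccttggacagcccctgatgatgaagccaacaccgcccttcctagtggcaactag
Psmb5: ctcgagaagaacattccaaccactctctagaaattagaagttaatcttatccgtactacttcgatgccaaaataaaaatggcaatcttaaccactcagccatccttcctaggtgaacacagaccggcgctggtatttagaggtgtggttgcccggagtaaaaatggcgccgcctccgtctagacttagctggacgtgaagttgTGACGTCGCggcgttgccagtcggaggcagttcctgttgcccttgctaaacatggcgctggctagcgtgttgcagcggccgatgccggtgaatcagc
Psme1 held a match to the interferon element on the minus strand, from 9 to 18 bases after the start site, and the Psme2 window held no match to either. A match to the interferon element was in 943 of 27025 promoters (3.49%) and in 5 of the 38 members with a promoter entry (13.2%), namely Psme1, Psmb3, Psmd4, Psmd9 and Psmg4. Psmb5 held a match to the antioxidant element, which was in 12.5% of promoters and in 6 of 38 members (15.8%). Of 3 further motifs, the ETS core CCGGAAG was in 14 of 38 members (36.8%), against 9.12% of promoters. These shares count the first window listed for each gene; with every listed window counted, Psma6 also held the ETS core, which made 15 members, and the other 4 motifs kept their counts. The CCAAT box was in 14 of 38 members (36.8%), against 37.9% of promoters, and the gamma-activated site TTCNNNGAA in 2 of 38 (5.26%), against 8.47%. These are matches of letters and do not show binding. Psma8, Psmb1, Psmb2, Psmb7, Psmc3, Psmd3, Psmd7 and Psmg2 had no entry.

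Outside the activators, 5 members had an unadjusted p under 0.05 in PL against NCT and none passed the adjusted threshold. Psmc4, an ATPase of the 19S base, had 40.7 CPM lowest, 66.5 CPM median and 109 CPM highest in PL, against 33.0, 52.5 and 60.7 CPM in NCT. PL replicate 8 was far above the others, and the groups overlapped. Its log2 fold change was 0.42 (SE 0.16, edgeR adjusted p = 0.0885, 8 of 9 PL libraries above the NCT median), and it was 0.24 within the number series used for Psme2 (edgeR adjusted p = 0.721; 0.0291, without PL replicate 9, to 0.721 over 30 alternatives). Psmb3, a beta ring subunit without proteolytic activity, had 0.30 (edgeR adjusted p = 0.117) and Psmd1 0.22 (edgeR adjusted p = 0.104), each above the NCT median in 9 of 9 PL libraries. For Psmb5 it was 0.29 (edgeR adjusted p = 0.129), with 8 of 9 above. Psmc1, another ATPase of the base, was the member with a negative value, -0.25 (edgeR adjusted p = 0.155, 8 of 9 PL libraries below the NCT median).

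Immunoproteasome formation exchanges the 3 catalytic subunits, Psmb5 for Psmb8, Psmb6 for Psmb9 and Psmb7 for Psmb10, so their log2 ratios were compared within libraries. Such a ratio does not depend on the scaling of libraries. None of 9 tests passed. The mean log2 ratio of Psmb8 to Psmb5 was -0.52 ± 0.70 in PL, -0.10 ± 0.58 in NT and -0.54 ± 0.43 in NCT (SD, n = 9 each). That of Psmb9 to Psmb6 was -2.72 ± 1.05, -2.83 ± 0.70 and -2.94 ± 0.93 in PL, NT and NCT. For Psmb10 to Psmb7 it was 0.10 ± 0.68, 0.33 ± 0.74 and -0.30 ± 0.55. PL against NT differed by -0.43, 0.11 and -0.24 in the same order of ratios, with two-sided exact sign-flip p of 0.191, 0.793 and 0.535. With each mouse left out, these ran from -0.56 to -0.22, from -0.17 to 0.40 and from -0.43 to -0.07, and the difference for Psmb9 to Psmb6 was below 0 without the mouse of replicate 7. The smallest p of the 9 was for Psmb10 to Psmb7 in NT against NCT, where NT was higher by 0.63 (two-sided exact permutation p = 0.0548, 0.376 after adjustment over 9 tests). Psmb8 itself had a log2 fold change of 0.48 in NT against NCT (edgeR adjusted p = 0.373) and 0.34 in PL against NCT (edgeR adjusted p = 0.350), where it was 0.87 within the mouse number series used for Psme2 (edgeR adjusted p = 0.0923).

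**Figure D5:**
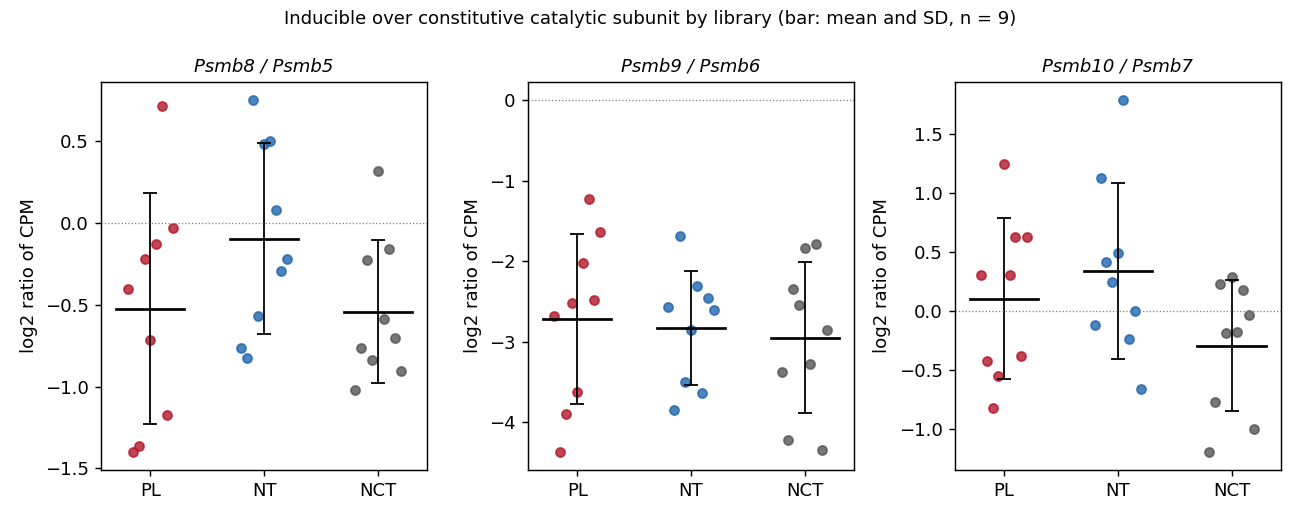
Log2 ratio of each inducible to its constitutive catalytic subunit in each library (points) with mean and SD (bars, n = 9) in PL, NT and NCT. All 3 groups overlap for each ratio, and Psmb9 lies far below Psmb6 throughout, with means of -2.72 in PL, -2.83 in NT and -2.94 in NCT.

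Of 43 other genes of the ubiquitin and proteasome pathway, 42 were tested. By edgeR, 1 was higher and 0 lower in PL against NT, beside 1.76% and 1.31% of all genes. In NT against NCT there were 0 and 0, beside 0.00692% and 0.0208% of all genes. At an unadjusted p under 0.05 edgeR had 5, beside 11.6% of all genes, and DESeq2 called 0, beside 0.928%. In PL against NCT 1 was higher and 0 lower, beside 5.45% and 4.62% of all genes. The edgeR calls were in the list of 8 interferon and antigen processing genes, where DESeq2 also called B2m, the light chain of MHC class I, higher in PL than in NCT. DESeq2 called 13.1% of all genes in that comparison. The median log2 fold change of the 8 listed genes was 0.06 in PL against NT, 0.38 in NT against NCT and 0.20 in PL against NCT. Tapbp, which loads peptides onto MHC class I, averaged 245 ± 61.6 CPM in PL and 136 ± 23.5 CPM in NCT (SD, n = 9 each), a log2 fold change of 0.83 (SE 0.14, edgeR adjusted p = 0.000458), with 9 of 9 PL libraries above the NCT median. It did not pass with the adipocyte covariate (0.47, edgeR adjusted p = 0.176) and passed in the 29 other alternatives run. In the other 2 comparisons Tapbp passed in no alternative. There it ran from 0.18 to 0.47 in PL against NT and from 0.31 to 0.64 in NT against NCT. Erap1, which trims such peptides, averaged 38.3 ± 8.49 CPM in PL and 24.7 ± 6.37 CPM in NT, a log2 fold change of 0.64 (SE 0.15, edgeR adjusted p = 0.0393, higher in 8 of 9 mice). That call was lost when any of 7 single mice was left out, with edgeR adjusted p up to 0.102, in females only (0.55, edgeR adjusted p = 0.289) and without the mice with libraries rich in Pth or Lipf (0.59, edgeR adjusted p = 0.232). The log2 fold change was 0.55 to 0.74 with each mouse left out.

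Outside the interferon and antigen processing list, edgeR called 0 of 34 tested regulators, cofactors, ubiquitin genes and shuttles in each comparison. At an unadjusted p under 0.05 there were 3 in PL against NT, 2 in NT against NCT and 3 in PL against NCT. Over all tested genes these shares were 17.6%, 11.6% and 23.6%. DESeq2 called 1 in PL against NT, Ubqln2, 0 in NT against NCT and 1 in PL against NCT, Herpud1. It called 8.89%, 0.928% and 13.1% of all genes in these comparisons. Nfe2l1, which encodes Nrf1, had a log2 fold change of 0.15 in PL against NT (edgeR adjusted p = 0.518) and 0.05 in PL against NCT (edgeR adjusted p = 0.847). Pomp, the chaperone that completes the core, had -0.20 in PL against NT (edgeR adjusted p = 0.402) and -0.34 in PL against NCT (edgeR adjusted p = 0.294). Among the shuttles and p97 genes, the smallest p in PL against NT was that of Ubqln2, a shuttle that brings tagged proteins to the proteasome, at 0.44 (edgeR adjusted p = 0.0863). It passed by DESeq2 (adjusted p = 0.0485) and in edgeR without the mouse of replicate 9 (adjusted p = 0.0440). These were 2 of 18 alternatives, over which edgeR adjusted p ran up to 0.287. Among the cofactors the smallest p in PL against NT was that of Zfand2a, a stress-induced proteasome-binding protein, at -0.63 (edgeR adjusted p = 0.157). Zfand2a was 0.60 in NT against NCT (edgeR adjusted p = 0.318), where 9 of 9 NT libraries were above the NCT median. In PL against NCT, Uchl5, a deubiquitinase of the 19S particle, had -0.31 (edgeR adjusted p = 0.123), with 9 of 9 PL libraries below the NCT median, and Herpud1, a stress gene of the endoplasmic reticulum, had -0.69 (edgeR adjusted p = 0.116). Herpud1 was lower by DESeq2 (adjusted p = 0.0481), in edgeR without PL replicate 9 (-0.92, adjusted p = 0.0117) and in females only (-0.96, edgeR adjusted p = 0.0465). It passed in these 3 of 30 alternatives, over which its log2 fold change ran from -0.96 to -0.36, with edgeR adjusted p up to 0.803.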

How the data were processed

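RNA was extracted from laser-captured thyroid tissue with a micro kit and made into QuantSeq 3′ libraries, per the labels' protocols. The authors deposited raw counts per gene, whole numbers with no normalization. The submitters' processing notes name STAR, featureCounts, DESeq2 and GRCm38 and give neither version nor role. Which annotation was counted, whether strand was used and how identifiers of molecules were handled is not given in the sources used here. Overlapping genes on opposite strands, such as Psmb7 and Nek6 or Psmc3 and Slc39a13, may therefore share reads, as may Psmd13 and the pseudogene Gm15542 within it. Each library of a group came from a different mouse. In comparisons against NCT, p-values measure the spread between libraries of different mice, and in PL against NT that of differences within mice. Nothing says that library preparation was repeated per mouse, so spread from preparation is not separated from spread between mice.

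Of 54532 rows, 54495 were named by identifier in GENCODE M21; the 37 rows without a name held 0.00428% of counts. The members and gene lists were chosen with earlier results of these data known. Each comparison was fitted on its 18 libraries by edgeR 4.0.16 (R 4.3.3) with its quasi-likelihood F test (trimmed mean of M values, filterByExpr with a minimum count of 10, robust dispersion, Benjamini-Hochberg adjustment at 0.05), with the mouse as a block for PL against NT. Standard errors are approximate, taken from the fold change and F. Levels are CPM with factors over all 27 libraries. Subunit ratios had 0.5 counts added to each gene and were tested by exact permutation. PL and NT libraries of a mouse deviated from their group means with correlations of -0.00646 to 0.233; the labels' mouse numbers define the pairs. The lowest chi-square per degree of freedom among 108 pairs of libraries within groups was 13.2, so none was taken as a duplicate. Fits were tested on simulated data with known changes, in genes drawn from all those at 10 CPM or more and not from members alone. They called 17%, 32% and 28% of 1.5-fold changes in PL against NT, NT against NCT and PL against NCT. Of 2-fold changes they called 72%, 81% and 77%. A missing call by itself therefore does not exclude a change of that size. These rates do not describe members, which had smaller standard errors. The median SE of members was 0.114, 0.122 and 0.122 in the same order of comparisons, against 0.205, 0.208 and 0.221 over all genes. The confidence intervals of members lay within 1.5-fold for 39, 36 and 37 of 43, and within 2-fold for 42, 43 and 43. For those members, changes beyond these bounds lay outside the interval.

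Members named with values are those past a threshold, the smallest p of each class, the highest and lowest levels of each class and a fixed set of catalytic, ubiquitin-handling, activator and tissue-restricted genes; a few others were chosen on their values. Alternatives were DESeq2 1.42.0, other size factors, filters, sex, left-out libraries, the block, an adipocyte covariate, the mouse number series and a single fit of 27 libraries. The series with 4 libraries of each group held replicates 6 to 9. Its only female NCT library was replicate 7, while PL and NT replicates 6 and 7 were female. NCT replicates 6 and 9 had mitochondrial shares of 20.3% and 20.0%. NCT replicate 9 was rich in Lipf, and NT replicates 7 and 9 and NCT replicate 8 in Pth. Values within that series carry these differences. Summing Psme2 and Psme2b was added after seeing the data.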

Additional observations from a re-analysis of the deposited data

Results flagged for a closer look

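In 8 of 84 sets of 9 values tested, each from the 9 libraries of 1 group, 1 library stood far from the others on the CPM scale. Chance gives about 1 in 20 sets, but these sets share the same 27 libraries and are not independent. Psma2 reached 320.5 CPM in NT replicate 1, the highest NT library for 17 of 43 members. Psmb6 reached 155.3 CPM in NT replicate 2, Psmd1 228.7 CPM in NT replicate 4 and Psme1 232.0 CPM in NT replicate 6. Psmc4 was low at 41.5 CPM in NT replicate 9, the lowest NT library for 17 of 43 members and one with 25924 CPM of Pth. Psmd9 reached 22.1 CPM in PL replicate 3 and 15.9 CPM in NCT replicate 1. Psme4 reached 111.9 CPM in NCT replicate 4.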

How the results depend on the processing

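In PL against NT, the counts of members called stayed at 0 higher and 0 lower under each alternative, and the median log2 fold change was 0.07 to 0.12 with each mouse left out. Without the mouse block, ignoring the pairing, there were 0 higher and 0 lower with a median of 0.09. In NT against NCT the counts also stayed at 0. In PL against NCT the 2 members higher became 1 with Psme2 and Psme2b summed, 1 in females only, 4 with all 27 libraries in one fit, 0 with the adipocyte covariate, 0 within the mouse number series that holds 4 PL and 4 NCT libraries, and 2 to 3 with each library left out; beyond the smaller number of genes or libraries in some of these fits, the cause was not tested. Psme2b was lost in females (0.70, edgeR adjusted p = 0.0753), with the adipocyte covariate (0.66, edgeR adjusted p = 0.163) and within that series (0.57, edgeR adjusted p = 0.166); Psmb5 passed with the number series as a covariate (0.40, edgeR adjusted p = 0.0494). With all 27 libraries, Psme1 (edgeR adjusted p = 0.0412) and Psmc4 (edgeR adjusted p = 0.0430) passed. With each library left out, the NT minus NCT difference of log2 ratios was 0.34 to 0.55 for Psmb8 to Psmb5 (unadjusted exact permutation p from 0.0309 to 0.160) and 0.45 to 0.76 for Psmb10 to Psmb7 (0.0213 to 0.110, unadjusted). Psma8, Psmb11 and Psmc3ip had too few reads to be tested, and the tested chaperones averaged down to 10.8 CPM.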
